A study of Mus musculus with 36 samples.

Results

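The 7 genes described here, Cartpt, Gal, Vip, Penk, Cck, Npy and Sst, encode precursors of neuropeptides of the enteric nervous system. They were picked by gene name from the 23361 distinct names in each expression file, and each matched 1 entry. Their RNA was followed across 3 embryonic stages, the genotype on the label and the level of Ret RNA. Whole guts were dissected from C57BL/6J mouse embryos on 3 embryonic days (E10.5, E12.5, E14.5). At each stage the groups were Ret null females, Ret null males, wild-type females and wild-type males, with 3 libraries each and 36 in all; "Ret null" stands for homozygotes, and the labels do not describe how the allele was made. Poly(A) RNA was sequenced, and values are FPKM, fragments per kilobase of transcript scaled to the library's total, as deposited. Whole gut holds muscle, mesenchyme and epithelium as well as neural cells, so fewer neurons and less RNA per neuron cannot be told apart. No label ties a library to an embryo of its own, and p-values therefore cover only the variation among these libraries, part of which may be technical.

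Neuropeptides are made as larger precursors that are cut by convertases in the secretory pathway, stored in dense-core vesicles and released to act on G protein-coupled receptors. In the gut they are carried by enteric neurons, which descend from crest cells that enter the foregut and migrate towards the anus. Ret, the receptor tyrosine kinase that responds to GDNF, is needed for that migration, and its loss leaves most of the bowel without ganglia. Some of these peptides are also made by endocrine cells of the epithelium and pancreas or by sympathetic neurons and adrenal chromaffin cells.

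The labels were first checked against Ret RNA. Of 18 libraries labelled Ret null, 7 held Ret RNA at 4.74 to 6.49 FPKM: E10.5 females 1, 2 and 3, E12.5 male 2, and E14.5 females 1 and 3 and male 1. The other 11 held 0.0111 to 0.0587 FPKM, and the 18 wild-type libraries 2.11 to 13.3 FPKM. Below, libraries under 1 FPKM of Ret are called without Ret RNA, and each member's genotype comparison within a stage is given both with all libraries as labelled and without those 7. Ret is itself a gene of the crest-derived cells, so leaving libraries out by their Ret RNA can favour libraries that hold fewer of those cells. In 4 libraries the sex-linked RNA did not match the labelled sex, and females and males are named here by label. At E10.5 female 3 labelled Ret null had 0.911 FPKM of Xist, the RNA of the inactive X, and 13.5 FPKM of the Y-linked Ddx3y, whereas male 1 labelled Ret null had 66.1 FPKM of Xist and 0 FPKM of Ddx3y. The other 2 were E12.5 wild-type females 1 and 2, each with both RNAs. In 4 pairs of libraries, the members of a pair differed by about as much as counting noise; the mean of each such pair entered as a single sample, leaving 32. At each stage all 6 gut wall and epithelium markers reached 1 FPKM in at least 1 library of each class, with the sexes pooled. The classes are wild type and labelled Ret null with or without Ret RNA.

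All 7 genes are protein coding, and coordinates are those of the files on mm10. Cartpt lies on chromosome 13 (99898483 to 99900683), Gal on chromosome 19 (3409917 to 3414457), Vip on chromosome 10 (5639218 to 5647614) and Penk on chromosome 4 (4133536 to 4138445). Cck lies on chromosome 9 (121489824 to 121495689), Npy on chromosome 6 (49822729 to 49829505) and Sst on chromosome 16 (23889581 to 23890844). A RefSeq promoter was at hand for 6 of the 7 genes, the exception being Penk. The promoters of the 4 genes that fell at 1 or more stages without Ret RNA (Cartpt, Gal, Vip and Cck), and that of Sst for comparison, are printed so that their motifs can be compared. Each is the 150 bases before the RefSeq transcription start (GRCm38.p6), 5′ to 3′ on the gene's strand, at chr13:99900684-99900833 (minus) for Cartpt, chr19:3414545-3414694 (minus) for Gal, chr10:5639068-5639217 (plus) for Vip, chr9:121495695-121495844 (minus) for Cck and chr16:23890845-23890994 (minus) for Sst. Capitals mark a match to the cAMP response element, the palindrome TGACGTCA, or to its first 7 letters, TGACGTC, searched on both strands.
Cartpt: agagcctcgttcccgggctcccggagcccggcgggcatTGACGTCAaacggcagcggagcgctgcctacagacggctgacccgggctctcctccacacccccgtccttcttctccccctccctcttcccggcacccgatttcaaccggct
Gal: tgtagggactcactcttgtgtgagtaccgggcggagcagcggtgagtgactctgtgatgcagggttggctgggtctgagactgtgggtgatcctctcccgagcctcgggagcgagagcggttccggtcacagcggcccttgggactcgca
Vip: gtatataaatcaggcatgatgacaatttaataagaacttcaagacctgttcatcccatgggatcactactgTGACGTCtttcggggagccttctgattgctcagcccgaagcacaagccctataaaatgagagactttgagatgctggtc
Cck: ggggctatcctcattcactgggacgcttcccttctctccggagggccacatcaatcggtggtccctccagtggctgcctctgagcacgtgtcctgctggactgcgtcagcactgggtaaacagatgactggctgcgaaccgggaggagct
Sst: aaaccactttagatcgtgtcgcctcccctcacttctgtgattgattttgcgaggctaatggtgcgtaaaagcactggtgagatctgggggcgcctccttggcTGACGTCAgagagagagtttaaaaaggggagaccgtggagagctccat
The full palindrome stood in Cartpt, 112 to 105 bases before the start, and in Sst, 48 to 41 bases before it. Vip held the 7-letter form 79 to 73 bases before its start. Gal, Cck and Npy held neither form in the 250 bases before the start. Over that window the palindrome occurred in 1.55% of 32851 RefSeq promoters and the 7-letter form, which includes it, in 2.78%. Among the genes that fell without Ret RNA, Cartpt and Vip held it and Gal and Cck did not.

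Levels of the 7 genes per kilobase were ordered differently at each stage in wild type. At E10.5 Penk had the highest median, 5.32 FPKM, followed by Cck at 3.91, Cartpt at 3.09, Gal at 2.48, Sst at 1.57, Npy at 0.910 and Vip at 0.0931 FPKM. Each gene's library range overlapped that of the next in this order; Npy, for example, spanned 0.223 to 4.94 FPKM and Vip 0.0200 to 0.320 FPKM. At E12.5 the order was Penk (15.5), Cartpt (12.03), Cck (9.98), Gal (5.62), Sst (1.13), Npy (0.884) and Vip (0.535 FPKM). Gal at 4.46 to 15.3 FPKM stood above Sst at 0.215 to 3.35 FPKM in every library, and each other neighbouring pair overlapped. At E14.5 Penk (11.7) and Cartpt (7.34) led, with ranges of 9.14 to 22.5 and 4.43 to 8.47 FPKM that did not overlap. Npy (4.64), Gal (4.24), Vip (3.82), Sst (3.01) and Cck (2.33 FPKM) followed, each overlapping the next. In the 3 E14.5 libraries without Ret RNA Penk stood far above the others, with a median of 10.1 FPKM, against 1.25 FPKM for Cck, 0.565 for Npy, 0.384 for Cartpt, 0.260 for Gal, 0.204 for Sst and 0.0488 FPKM for Vip.

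**Figure D1:**
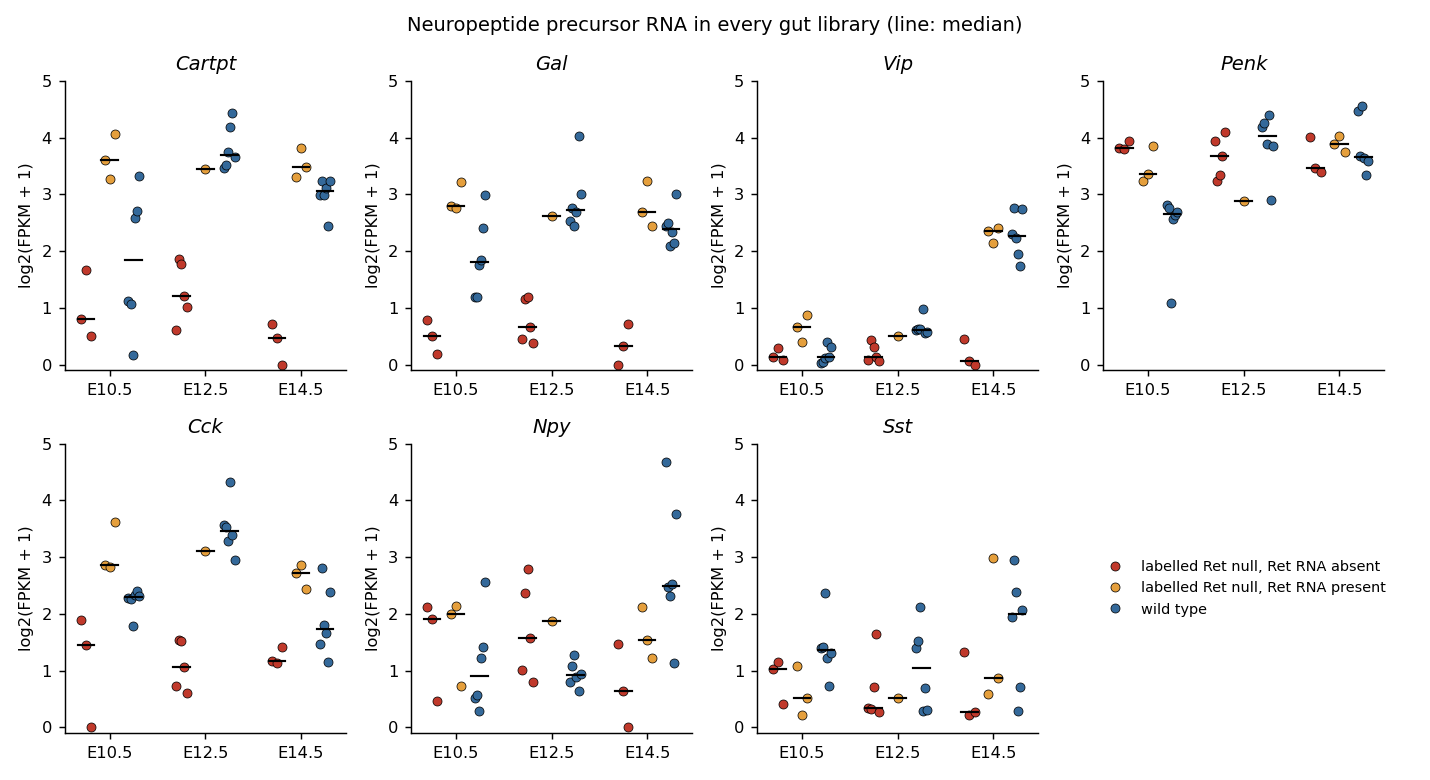
Each point is 1 library: the y axis gives log2(FPKM + 1), the x axis the stage, and within a stage points run from libraries labelled Ret null without Ret RNA to those with Ret RNA and to wild type, with a line at the median. Cartpt, Gal and Vip at E14.5 are lower in each library without Ret RNA than in any library of the other 2 classes, whereas Penk stays between 9.56 and 15.1 FPKM without Ret RNA at that stage.

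Cartpt encodes the precursor of CART, a peptide of many enteric neurons. At E12.5 it had 0.522, 2.63, 2.42, 1.32 and 1.02 FPKM in the 5 libraries without Ret RNA (females 1, 2 and 3, males 1 and 3), against 10.1 to 20.7 FPKM with a median of 12.03 in wild type. The groups did not overlap. Male 2, the library labelled Ret null that held Ret RNA, had 9.88 FPKM and so stood just under the lowest wild-type library. The log2 fold change of FPKM + 1 was -2.21 (SE 0.444, adjusted p = 0.344) as labelled and -2.59 (SE 0.260, adjusted p = 0.00741) without male 2. At E14.5 the levels were 0.641, 0.384 and 0 FPKM without Ret RNA (female 2, males 2 and 3), 8.85, 13.1 and 10.2 FPKM with Ret RNA under the Ret null label, and 4.43 to 8.47 FPKM in wild type. All 3 libraries with Ret RNA lay above every wild-type library. The fold change was -1.04 (SE 0.628, adjusted p = 0.254) as labelled and -2.53 (SE 0.206, adjusted p = 0.00322) without those 3.

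Gal encodes galanin, a peptide that modulates transmitter release from enteric neurons. At E12.5 it had 0.374, 1.24, 1.29, 0.575 and 0.299 FPKM in females 1, 2 and 3 and males 1 and 3 without Ret RNA, against 4.46 to 15.3 FPKM in wild type with a median of 5.62. Again the groups did not overlap, and male 2 with Ret RNA had 5.17 FPKM, within the wild-type range. Gal fell by 2.17 on the log2 scale without that library (SE 0.262, adjusted p = 0.0134), and its fold change as labelled was -1.82 (SE 0.415, adjusted p = 0.370). At E14.5 it had 0, 0.260 and 0.648 FPKM without Ret RNA, 5.44, 8.41 and 4.45 FPKM with it under the same label, and 3.25 to 6.999 FPKM in wild type. The difference without the libraries holding Ret RNA was -2.15 (SE 0.219, adjusted p = 0.00523), against -0.85 (SE 0.524, adjusted p = 0.265) as labelled.

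Vip encodes vasoactive intestinal peptide, a transmitter of inhibitory motor and secretomotor neurons that relaxes muscle. It was near the floor at E10.5 in all classes, with at most 0.829 FPKM, and under 1 FPKM in all E12.5 libraries, so it entered the genotype test at E14.5 only. At E12.5 it had 0.0391 to 0.355 FPKM without Ret RNA and 0.415 FPKM in male 2 with it, against 0.467 to 0.974 FPKM in wild type, with no overlap and no test. At E14.5 it had 0.360, 0.0488 and 0 FPKM without Ret RNA, 4.11, 3.41 and 4.28 FPKM with Ret RNA under the Ret null label, and 2.32 to 5.82 FPKM in wild type. The first of these groups lay below the others without overlap. Vip fell by 2.05 on the log2 scale without the 3 libraries holding Ret RNA (SE 0.242, adjusted p = 0.00836), and its fold change as labelled was -1.05 (SE 0.451, adjusted p = 0.120). That value as labelled passed the threshold with male 1, which held Ret RNA, left out (-1.45, adjusted p = 0.0365).

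Cck encodes cholecystokinin, made by neurons and by endocrine cells of the small bowel. At E12.5 it had 0.657, 1.90, 1.89, 1.09 and 0.511 FPKM in females 1, 2 and 3 and males 1 and 3 without Ret RNA, against 6.68 to 19.0 FPKM with a median of 9.98 in wild type. The groups did not overlap, and male 2 with Ret RNA had 7.58 FPKM, within the wild-type range. Cck fell by 2.44 on the log2 scale without male 2 (SE 0.279, adjusted p = 0.0121), against -2.06 (adjusted p = 0.344) as labelled. The summed level of the 14 endocrine cell markers was 58.6 to 73.8 FPKM in the E12.5 libraries without Ret RNA and 7.40 to 113.5 FPKM in wild type. Of these markers, 0 of the 7 tested without male 2 were called. The narrow sum without Ret RNA does not mean that each marker was steady. Gcg was 53.02 and Chga 2.619 FPKM in female 1, against 9.845 and 39.88 FPKM in female 3. Over the 32 samples Chga had a Pearson r of 0.870 with Th, a sympathoadrenal marker, and -0.182 with Gcg. The sum therefore cannot be read as a level of endocrine cells alone. At E14.5 Cck had 1.25, 1.202 and 1.66 FPKM without Ret RNA, 5.58, 6.25 and 4.44 FPKM with it under the Ret null label, and 1.22 to 5.99 FPKM in wild type. Male 2 without Ret RNA lay just under the lowest wild-type library and the other 2 inside the wild-type range, and Cck was not called with or without the libraries holding Ret RNA (-0.66, adjusted p = 0.243 without them and 0.08, adjusted p = 0.900 as labelled).

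Read against all genes, 0 of 6 tested members were called at E12.5 as labelled, where 0.00759% of 13182 genes were called. Without male 2 it was 3 of 6, all lower, where 0.259% of 13121 genes were called and all of those were lower. At E14.5 the count was 1 of 7 as labelled (Npy) against 15.7% of 13861 genes, and 3 of 7 (Cartpt, Gal and Vip) without the 3 libraries holding Ret RNA, against 8.61% of 13729 genes, 4.65% being lower. The median fold change of the 6 members tested at E12.5 without male 2 was -1.29, and that of the 7 at E14.5 was -1.92, beside medians over all genes of 0.006 and 0.035, in these sets without the libraries holding Ret RNA. At E14.5 the calls of Cartpt, Gal and Vip without those 3 libraries held when any other sample was also left out, with adjusted p up to 0.0164 for Cartpt, 0.0310 for Gal and 0.0495 for Vip. At E12.5 Cartpt lost its call without male 3 of the Ret null label (0.0553), without the sample of wild-type females 1 and 2 (0.0534) or without wild-type female 3 (0.0521). Cck lost it without the same 3 samples (0.0809, 0.0899 and 0.0642), and Gal without those (0.0829, 0.104 and 0.0810) or male 1 labelled Ret null (0.0541). The fold changes in these fits stayed between -2.71 and -2.39 for Cartpt, -2.31 and -1.97 for Gal and -2.59 and -2.24 for Cck. The E14.5 libraries without Ret RNA include males 2 and 3, which differed by only 1.08 times counting noise but entered as separate samples. Whether the E14.5 calls hold with that pair counted as 1 sample was not tested.

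**Figure D2:**
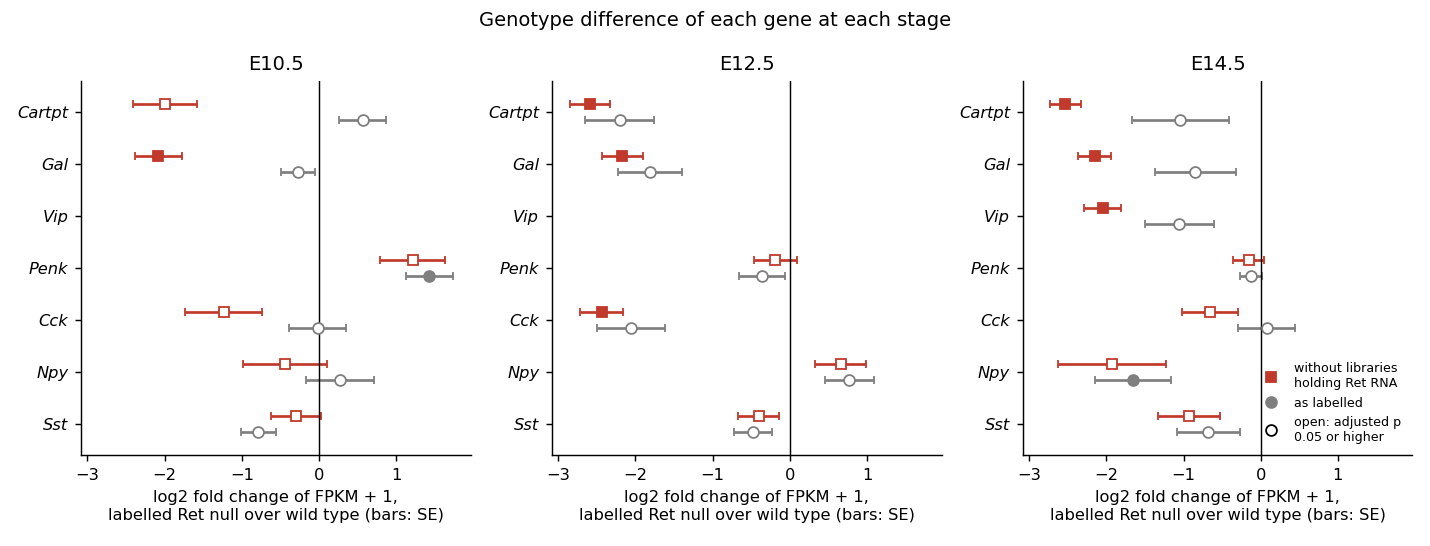
Log2 fold change of FPKM + 1, libraries labelled Ret null over wild type, with its SE for each gene and stage; squares leave out the libraries labelled Ret null that hold Ret RNA, circles use all libraries, and filled symbols have an adjusted p under 0.05. Filled squares are those of Gal at E10.5, of Cartpt, Gal and Cck at E12.5 and of Cartpt, Gal and Vip at E14.5. They lie between -2.59 and -2.05. Filled circles are those of Penk at E10.5 (1.43) and Npy at E14.5 (-1.65). Vip was not tested at E10.5 and E12.5.

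At E10.5 the 3 libraries without Ret RNA were all labelled male and the 3 with Ret RNA under the Ret null label were all labelled female; by sex-linked RNA each of these classes held both sexes, through male 1 and female 3. Cartpt had 0.740, 2.18 and 0.421 FPKM without Ret RNA, 11.2, 8.70 and 15.7 FPKM with it, and 0.126 to 8.97 FPKM in wild type. In wild type the males (5.003, 5.54 and 8.97 FPKM) lay above the females (1.17, 1.10 and 0.126 FPKM). Depth split the same way. The authors' interval widths corresponded to 52.0 to 66.1 fragments per FPKM in these females and 28.7 to 31.8 in these males (medians over genes). Gal had 0.717, 0.421 and 0.136 FPKM without Ret RNA and 5.98, 5.78 and 8.33 FPKM with it, against 1.28 to 6.91 FPKM in wild type. Cck had 2.69, 1.73 and 0 FPKM without Ret RNA and 6.24, 6.06 and 11.3 FPKM with it, against 2.44 to 4.31 FPKM in wild type. For all 3 genes each library with Ret RNA under the Ret null label lay above each without it. The fold changes as labelled were 0.57 for Cartpt, -0.28 for Gal and -0.02 for Cck (adjusted p = 0.261, 0.441 and 0.983). Without the 3 libraries labelled female the comparison rested on libraries labelled male: Gal fell by 2.08 (SE 0.301, adjusted p = 0.0479), while Cartpt at -1.99 (adjusted p = 0.0942) and Cck at -1.23 (adjusted p = 0.232) were not called. Gal kept its call in 2 of 7 fits with a further sample left out, those without wild-type females 1 and 2 or wild-type female 3. These females entered the shared spread but not the compared groups, so Gal kept the call in no fit without a compared sample. It lost it without male 1 (0.0853), male 2 (0.126) or male 3 (0.150) labelled Ret null, or wild-type males 3 and 4 (0.0822) or 5 (0.246).

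The genotype difference was not shown to depend on the labelled sex for any member. At E10.5 the interaction was -5.12 for Cartpt (SE 0.607) and -3.61 for Gal (SE 0.440), both with an adjusted p of 0.0720. The labelled sex and Ret RNA coincide there under the Ret null label, and wild-type Cartpt also differed between the labelled sexes, as given above. Of the 2 libraries there whose sex-linked RNA went against the label, female 3, which held Ret RNA, had 15.7 FPKM of Cartpt. Male 1, which did not hold it, had 0.740 FPKM. The parts of sex and Ret RNA in the interaction were not tested. No gene was called in this test at any stage (0% of 13165, 13182 and 13861 genes by limma), and 2459, 304 and 533 genes had an unadjusted p under 0.05 at the successive stages.

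Penk encodes the precursor of the enkephalins, opioid peptides that quiet gut motility. At E10.5 it had 8.42, 9.24 and 13.5 FPKM with Ret RNA under the Ret null label and 13.2, 13.0 and 14.4 FPKM in those without, against 1.11 to 6.06 FPKM with a median of 5.32 in wild type. All 6 libraries under the Ret null label, with or without Ret RNA, lay above all 6 in wild type. Penk rose by 1.43 on the log2 scale as labelled (SE 0.307, adjusted p = 0.0339), 1 of 6 members tested, where 8.29% of 13165 genes were called. Without the 3 females holding Ret RNA it was 1.21 (SE 0.421, adjusted p = 0.193), where 0.522% of 13037 genes were called. It passed the threshold there only without wild-type females 1 and 2 or wild-type female 3. Those females entered the shared spread but not the compared groups, and the fold change stayed at 1.21 in these fits. The call as labelled held without wild-type females 1 and 2 (adjusted p = 0.00103) or wild-type female 3 and was lost without any of the other 7 samples, with adjusted p between 0.0547 and 0.106 and fold changes of 1.29 to 1.57.

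Markers of the gut wall and epithelium were higher beside Penk at E10.5. As labelled, 6 of 6 rose in the libraries labelled Ret null: Actg2, a smooth muscle actin, by 2.34 (adjusted p = 0.00179), Epcam, an epithelial adhesion molecule, by 1.07 (0.00709), Foxf1, a factor of gut mesenchyme, by 1.04 (0.0311), and Foxa2, Cdx2 and Nkx2-3 by 0.91, 0.88 and 0.78. Over all genes 5.61% rose as labelled. Without the libraries holding Ret RNA 2 of 6 rose, Epcam by 1.21 (adjusted p = 0.00913) and Foxa2 by 1.74 (0.00871), where 0.453% of all genes rose. That set compared only libraries labelled male. The summed level of the 6 markers was 253.4 to 303.1 FPKM without Ret RNA and 198.7 to 233.5 FPKM with it under the Ret null label, against 66.7 to 116.9 FPKM in wild type. The endocrine cell markers summed to 67.6 to 77.6 and 68.2 to 86.5 FPKM in those classes, against 25.2 to 55.1 FPKM in wild type, with 0 of 9 called. Their part in the Penk result was not tested. At E12.5 Penk had 8.44 to 16.2 FPKM without Ret RNA and 6.35 FPKM in male 2 with it, against 6.50 to 20.2 FPKM in wild type. At E14.5 it had 9.56 to 15.1 FPKM without Ret RNA and 12.52 to 15.3 FPKM with it under the same label, against 9.14 to 22.5 FPKM in wild type. The groups overlapped at both stages, with fold changes of -0.36 (95% interval -1.03 to 0.32) at E12.5 and -0.12 (95% interval -0.43 to 0.19) at E14.5 as labelled, and -0.19 (adjusted p = 0.842) and -0.16 (adjusted p = 0.609) without the libraries holding Ret RNA.

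Npy encodes neuropeptide Y, carried by enteric neurons and, with noradrenaline, by sympathetic neurons and chromaffin cells. At E14.5 it had 1.75, 0.565 and 0 FPKM without Ret RNA and 3.33, 1.91 and 1.34 FPKM with it under the Ret null label, against 1.19 to 24.7 FPKM with a median of 4.64 in wild type. Wild-type female 1 (24.7 FPKM) and male 3 (12.49 FPKM) stood above the rest, and wild-type male 2 (1.19 FPKM) lay inside the range labelled Ret null. Npy fell by 1.65 as labelled (SE 0.491, adjusted p = 0.0450). Without the libraries holding Ret RNA it was -1.92 (SE 0.699, adjusted p = 0.110). The call as labelled held without wild-type female 3 or wild-type male 2 (lowest adjusted p 0.0254) and was lost without any of the other 10 samples (0.0537 to 0.105). Without wild-type female 1 the fold change was -1.27 (adjusted p = 0.0741).

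Levels of sympathoadrenal markers are given beside Npy. None was called with genotype by limma: 0 of 2 tested at E14.5, where Th was -1.22 (adjusted p = 0.0838) and Dbh -1.17 (adjusted p = 0.147) as labelled, and 0 of 3 at E10.5 and at E12.5, with or without the libraries holding Ret RNA. The 5 markers (Th and Dbh, enzymes of catecholamine synthesis, Pnmt, Slc6a2 and Slc18a1) summed at E14.5 to 0.551 to 1.07 FPKM without Ret RNA, with Pnmt at 0 in all 3 libraries, and to 2.18 to 4.38 FPKM with it under the Ret null label, against 1.70 to 42.3 FPKM in wild type. Wild-type female 1 had 14.9 FPKM of Th and 18.9 of Dbh, and wild-type male 3 5.14 and 6.44 FPKM, the highest of that stage as for Npy. At E12.5 Npy had 1.01, 4.19, 5.93, 1.96 and 0.747 FPKM in females 1, 2 and 3 and males 1 and 3 without Ret RNA, against 0.560 to 1.41 FPKM in wild type. Here 3 of those 5 lay above every wild-type library and the other 2 within the range. Male 2, which held Ret RNA under the Ret null label, had 2.66 FPKM and also lay above every wild-type library. Females 2 and 3, with the most Npy, also had the most Th (18.1 and 19.8 FPKM) and Dbh (27.8 and 32.7 FPKM). The marker sum was 0.536 to 56.8 FPKM without Ret RNA and 39.2 FPKM in male 2 with it, against 5.63 to 29.4 FPKM in wild type. The genotype difference at E12.5 was 0.77 (SE 0.315, adjusted p = 0.582) as labelled and 0.66 (SE 0.328, adjusted p = 0.629) without male 2. Within stages, Npy and Th had a Pearson r of 0.886, 0.886 and 0.948 on the log2 scale over 9, 11 and 12 samples at the successive stages, and Npy and Ret 0.016, -0.510 and 0.699; samples that share depth and dissection enter both values. At E10.5 Npy had 3.35, 2.76 and 0.381 FPKM without Ret RNA and 3.00, 3.40 and 0.658 FPKM with it under the Ret null label, against 0.223 to 4.94 FPKM in wild type. The groups overlapped, with a fold change of 0.27 as labelled (SE 0.440, adjusted p = 0.720) and -0.45 (SE 0.544, adjusted p = 0.672) without the libraries holding Ret RNA. The part of sympathoadrenal cells in the Npy results was not tested.

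**Figure D3:**
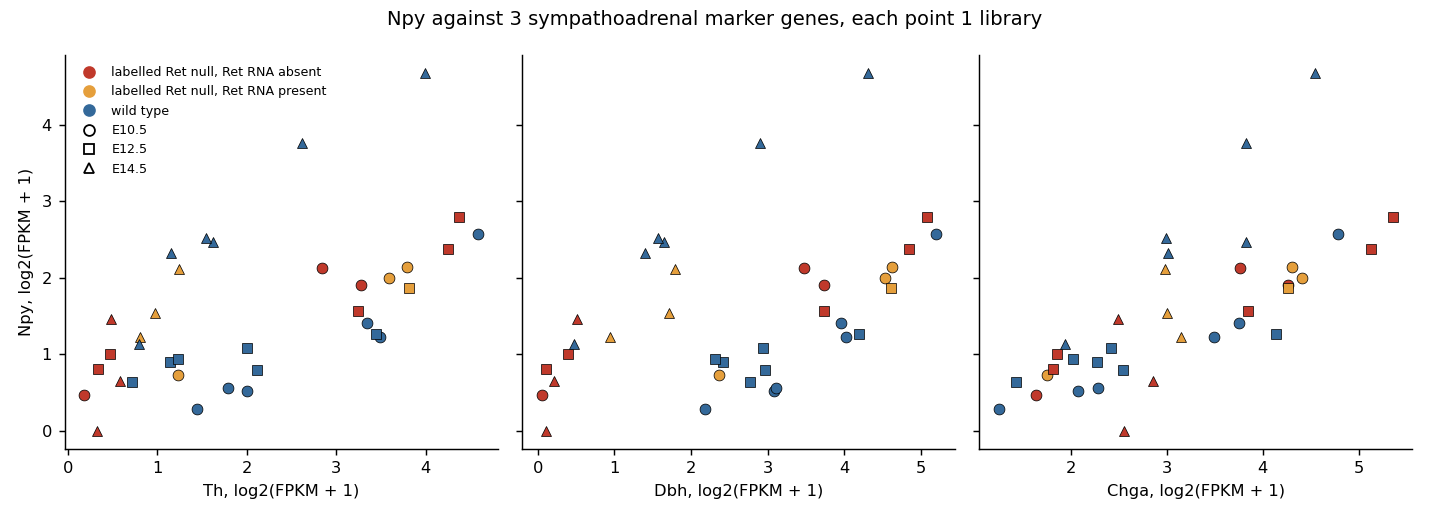
Npy on the y axis against Th, Dbh and Chga on the x axes, all as log2(FPKM + 1); each point is 1 library, colour gives the label with Ret RNA and shape the stage. Within each stage Npy is higher where Th is higher (Pearson r of 0.886, 0.886 and 0.948), and the E14.5 wild-type library at 24.7 FPKM of Npy is also the highest of its stage in Th.

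Sst encodes somatostatin, made by a subset of enteric neurons, by D cells of the epithelium and by islet cells. Its levels varied from 0.163 to 6.95 FPKM, and the genotype groups overlapped at each stage. At E10.5 it had 1.03, 1.21 and 0.334 FPKM without Ret RNA and 1.11, 0.165 and 0.433 FPKM with it under the Ret null label, against 0.646 to 4.16 FPKM in wild type. At E12.5 it had 0.204 to 2.11 FPKM without Ret RNA and 0.426 FPKM in male 2 with it, against 0.215 to 3.35 FPKM in wild type. The highest library of each of these stages was wild type. At E14.5 it had 1.52, 0.163 and 0.204 FPKM without Ret RNA, 0.509, 6.95 and 0.823 FPKM with it under the Ret null label, and 0.218 to 6.70 FPKM in wild type. Female 3 labelled Ret null lay above every wild-type library, and the other 5 under that label lay inside the wild-type range or below it. The fold changes were -0.79 at E10.5 (adjusted p = 0.0732), -0.48 at E12.5 (0.604) and -0.68 at E14.5 (0.258) as labelled. Without the libraries holding Ret RNA they were -0.30 (0.636), -0.40 (0.666) and -0.93 (0.158). The E14.5 value as labelled passed the threshold only with female 3 labelled Ret null left out (-1.01, adjusted p = 0.0482), and the E10.5 value only with wild-type females 1 and 2 left out (-1.02, adjusted p = 0.0259). The authors' interval around Sst had a median half-width of 64.3% of the value, the widest of the 7, against 15.1% for Penk.

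Over the stages in wild type, Penk and Cartpt were higher at E12.5 than at E10.5, and Vip and Npy rose and Cck fell by E14.5. Penk had medians of 5.32, 15.5 and 11.7 FPKM at the 3 stages in turn, with a step of 1.60 to E12.5 (SE 0.301, adjusted p = 0.00308) and -0.01 to E14.5. It was 1 of 7 members called in the first step, where 4.57% of 14321 genes were called. Cartpt had medians of 3.09, 12.03 and 7.34 FPKM, with a first step of 2.05 that was called when the 7 libraries holding Ret RNA against their label did not enter the shared spread (SE 0.292, adjusted p = 0.000791; 2 members and 5.02% of 14247 genes called), but not with them (SE 0.626, adjusted p = 0.0626). Its second step of -0.85 was likewise called without them (adjusted p = 0.00970, where 59.8% of genes were called) and not with them (0.202). Gal, with medians of 2.48, 5.62 and 4.24 FPKM, was not called in either step.

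From E12.5 to E14.5 in wild type 3 of 7 members were called, where 58.9% of 14321 genes were called, so that the count of members stands no higher than the background. Vip had 2.32 to 5.82 FPKM at E14.5, against 0.467 to 0.974 FPKM at E12.5, and rose by 1.63 (SE 0.342, adjusted p = 0.000302). Npy had 1.19 to 24.7 FPKM at E14.5, against 0.560 to 1.41 FPKM at E12.5, and rose by 1.85 (SE 0.474, adjusted p = 0.00192), and by 1.47 (adjusted p = 0.00715) without E14.5 female 1. Cck had 1.22 to 5.99 FPKM at E14.5, against 6.68 to 19.0 FPKM at E12.5, and fell by 1.60 (SE 0.440, adjusted p = 0.00336), with no overlap of the stages. All 3 calls held with any 1 sample left out. Wild-type depth differed with the stage: the authors' interval widths corresponded to 86.3 to 114.6 fragments per FPKM at E12.5 and 20.3 to 27.6 at E14.5 (medians over genes).

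Among libraries labelled Ret null, Vip at E14.5 split by Ret RNA, and its step from E12.5 was 0.98 as labelled (SE 0.323, adjusted p = 0.0204), the only member called of 7, where 35% of genes were called. It lost the call without E14.5 female 1 (0.0658), female 3 (0.0547) or male 1 (0.0685), the 3 libraries with Ret RNA, and the step was 0.06 (SE 0.190, adjusted p = 0.854) without them, where 23.4% of genes were called. The step of Vip differed between the genotypes by -1.57 in that set (SE 0.243, adjusted p = 0.00141), where 18.0% of 14247 genes were called, and lost the call there without E14.5 female 2 labelled Ret null (-1.50, adjusted p = 0.0904). As labelled the difference was -0.64 (SE 0.470, adjusted p = 0.342), and it passed the threshold only without E14.5 male 1, which held Ret RNA (-1.03, adjusted p = 0.0465). From E10.5 to E12.5 under the Ret null label 0 of 7 members were called by limma, where 3.36% of genes were called as labelled and 0.0912% without the libraries holding Ret RNA, and 0 members had an unadjusted p under 0.05 in either set.

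Steps between stages differed with genotype for 3 members as labelled. Penk's step from E10.5 to E12.5 was smaller under the Ret null label (interaction -1.79, SE 0.406, adjusted p = 0.0275), where 1.34% of 14321 genes were called. That call was lost in 11 of 20 fits with 1 sample left out (adjusted p of 0.0502 to 0.0962): each E10.5 wild-type sample except females 1 and 2, E10.5 female 3 and male 3 labelled Ret null, E12.5 females 2 and 3 and male 2 labelled Ret null, and E12.5 wild-type females 1 and 2, female 3 and male 1. Its values over the 20 fits were -2.21 to -1.36, and the interaction was -1.04 (adjusted p = 0.704) without the libraries holding Ret RNA, where 0.00702% of genes were called. For E14.5 against E12.5 the interaction was 2.13 for Cck (SE 0.605, adjusted p = 0.0199) and -2.42 for Npy (SE 0.652, adjusted p = 0.0159), where 17.4% of genes were called. Both held with any 1 sample left out as labelled, and were 1.78 (adjusted p = 0.0316) and -2.58 (0.0331) without the libraries holding Ret RNA. In that set Cck lost the call in 5 of 19 fits with a further sample left out, those without E14.5 female 2 (0.171) or male 3 (0.0675) labelled Ret null, E12.5 male 3 labelled Ret null (0.0637), or the E12.5 wild-type samples of females 1 and 2 (0.0627) and of female 3 (0.0533). Npy lost it in 6, those without E14.5 female 2 (0.257) or male 3 (0.0755), E12.5 female 3 (0.0606) or male 1 (0.0805) labelled Ret null, or the same E12.5 wild-type samples (0.0641 and 0.0559). Wild-type E12.5 values enter both the genotype and the stage comparisons, so these results share samples.

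**Figure D4:**
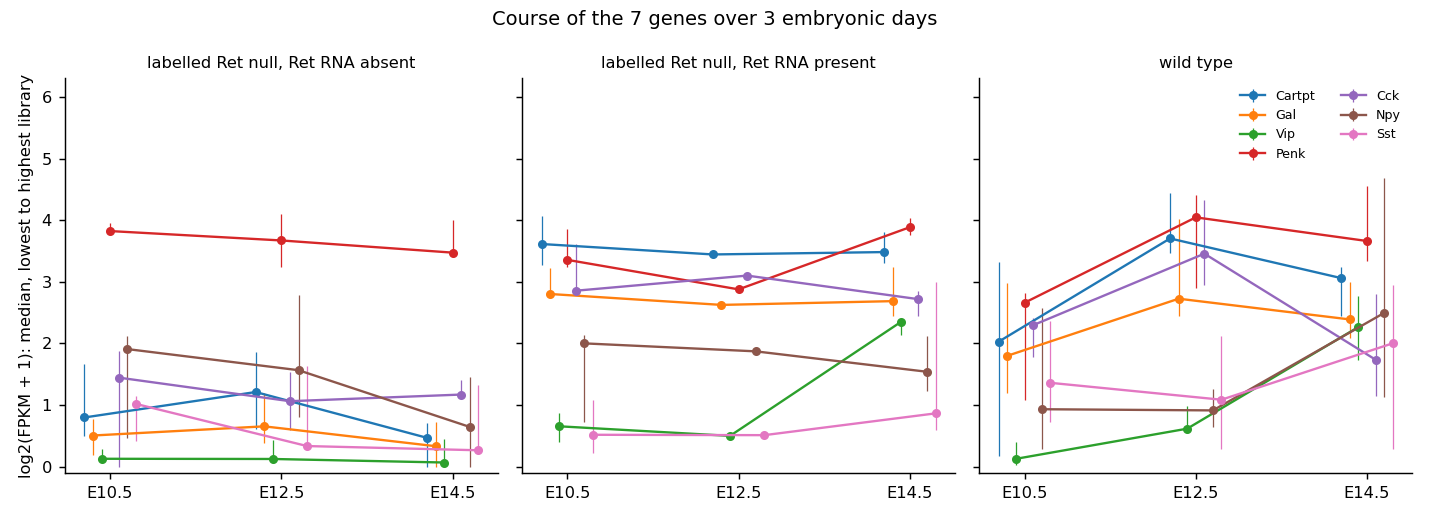
Median log2(FPKM + 1) of each gene (points, joined across E10.5, E12.5 and E14.5 on the x axis) with the lowest and highest library as bars, in the libraries labelled Ret null without Ret RNA, those with Ret RNA, and wild type. Vip reaches 4.11 FPKM at E14.5 with Ret RNA and 3.82 FPKM in wild type but 0.0488 FPKM without Ret RNA; E12.5 with Ret RNA is 1 library.

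The genes most alike to each member were sought over all 32 samples and 14320 genes by Pearson r on the log2 scale, as a description. Cartpt went most closely with Foxd3 (r = 0.962), a crest transcription factor, and Chrna3 (0.957), a nicotinic receptor subunit of autonomic neurons. Gal went with Chrna3 (0.925) and Cartpt (0.914), and Cck with Cdh19 (0.890), Foxd3 (0.844) and Sox8 (0.830). Vip went with Mapt (0.961), which encodes tau, Mast1 (0.957) and Celf5 (0.954), and Npy with Ptprn (0.847), a dense-core vesicle protein, and Sfrp4 (0.837). Penk went with Zcchc5 (0.890), Sphk1 (0.823) and Pdzd2 (0.818), and Sst with Tmem120a (0.784), Clca3 (0.765) and Gabarap (0.682). Within wild type alone (15 samples), Foxd3 (0.956) was again first for Cartpt and Zcchc5 (0.939) for Penk, while none of the genes named for Gal, Vip, Cck or Sst was among the first 3 again.

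Among the members, Cartpt and Gal had r = 0.914, Cartpt and Cck 0.809 and Gal and Cck 0.808 over the 32 samples, against 0.223 for Cartpt and Penk and 0.164 for Cartpt and Sst. Cartpt and Ret had r = 0.964 within E12.5 (11 samples) and 0.943 within E14.5 (12 samples), and Vip and Ret 0.974 within E14.5. Penk and Ret had r = -0.414, 0.068 and 0.337 within E10.5, E12.5 and E14.5. These values share the same libraries and rest in part on the split by Ret RNA itself.

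Of 21 receptor symbols listed for the peptides, 20 were in the files, and most were too low to test. The list names Ppyr1 and Npy4r, symbols of the same receptor gene, and holds no receptor for CART. At E10.5 Cckar, a cholecystokinin receptor also carried by gut muscle, rose by 1.43 (SE 0.150, adjusted p = 0.00337) and Vipr2, a VIP receptor of smooth muscle, by 0.73 (SE 0.164, adjusted p = 0.0379) in libraries labelled Ret null, 2 of 5 tested; 0 of 5 were called without the libraries holding Ret RNA. At E14.5 Vipr2 (0.61, adjusted p = 0.0216) and Oprk1 (0.53, adjusted p = 0.0260), the kappa opioid receptor, rose as labelled, 2 of 7 tested, against 0 of 7 without the libraries holding Ret RNA. At E12.5 0 of 6 were called as labelled and 0 of 5 without male 2. Over all genes as labelled 5.61% rose at E10.5 and 10.9% at E14.5. In wild type Cckar rose at both steps, by 1.02 (adjusted p = 0.0293) to E12.5 and by 2.17 (adjusted p = 1.23e-07) to E14.5. Vipr2 rose by 0.87 to E12.5 (adjusted p = 0.00469), Vipr1, a second VIP receptor, by 1.01 to E14.5 (adjusted p = 2.43e-07) and Adcyap1r1, the PACAP receptor, by 0.64 (adjusted p = 0.0329), while Oprd1, the delta opioid receptor, fell by 0.47 (adjusted p = 0.00765). Of 8 receptors tested, 3 rose and 1 fell to E14.5, where 31% of all genes rose and 27.9% fell. Over these the median step to E14.5 was 0.17, beside 0.02 over all genes.

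The machinery that cuts and stores neuropeptides fell in part at E14.5. Of 14 genes tested, 4 fell without the libraries holding Ret RNA: Pcsk1n, an inhibitor of prohormone convertase 1, by 1.40 (adjusted p = 0.0256), Scg5, the chaperone of convertase 2, by 1.37 (0.00987), Ptprn by 1.44 (0.0332) and Cadps, a priming factor of dense-core vesicles, by 0.81 (0.0261). Their list had a median of -0.34, beside 0.04 over all genes, and as labelled 0 of 14 were called, with a median of -0.24. Over all genes at E14.5, 4.65% fell without the libraries holding Ret RNA and 15.7% were called as labelled. At E12.5 0 of 12 were called as labelled and 0 of 11 without male 2. At E10.5 Scg5 rose by 0.84 (adjusted p = 0.0393) and Cpe, which trims cut peptides, by 0.45 (0.0436) in libraries labelled Ret null. These were 2 of 11 tested, where 5.61% of all genes rose, and 0 of 10 were called without the libraries holding Ret RNA. In wild type 6 of 14 rose to E14.5, among them Ptprn2 by 0.95 (adjusted p = 3.58e-05) and Pcsk1, convertase 1 itself, by 0.74 (8.80e-06), and 0 fell, where 31% of all genes rose.

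Other neuropeptide precursors were mostly not called with genotype. Of 20 in the files 9 were tested at E14.5 as labelled, and Scg2, the precursor of secretoneurin, fell by 0.86 (adjusted p = 0.0176). It fell by 1.17 without the libraries holding Ret RNA (adjusted p = 0.0190), 1 of 8 tested. At E10.5 Nmb, which encodes neuromedin B, fell by 0.36 (adjusted p = 0.0428), 1 of 6, as labelled, and at E12.5 0 of 6 were called in either set. Over all genes 2.67% fell at E10.5 as labelled. At E14.5 4.84% fell as labelled and 4.65% without the libraries holding Ret RNA. In wild type 4 of 11 rose to E14.5: Tac1, the precursor of substance P, by 1.21 (adjusted p = 0.00121), Scg2 by 1.09 (1.48e-05), Trh by 0.52 (0.00105) and Pnoc by 0.42 (5.30e-04). That share is near the 31% of all genes that rose in this step.

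Markers of enteric neurons and their progenitors also fell in part. Of 11 tested, 4 fell at E12.5 and 10 fell at E14.5 without the libraries holding Ret RNA, with medians of -1.74 and -2.51, against 0 at both stages as labelled. Over all genes without those libraries 0.259% fell at E12.5 and 4.65% at E14.5. The summed level of the neuron and progenitor markers was 46.6 to 62.8 FPKM at E14.5 without Ret RNA. It was 259.7 to 293.3 FPKM with Ret RNA under the Ret null label and 134.1 to 294.4 FPKM in wild type. Of 11 endocrine cell markers tested at E14.5, 3 fell without the libraries holding Ret RNA, Sct by 2.73 (adjusted p = 0.00678), Ghrl by 1.68 (0.0433) and Insm1 by 0.88 (0.0498); they encode secretin, ghrelin and a transcription factor of endocrine cells. The part of any 1 cell type in the neuropeptide values was not tested.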

How the data were processed

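RNA of whole embryonic gut was measured in 36 libraries. The deposited values are FPKM per gene with the authors' interval and status, per the file headers; the submitters' processing notes name Picard, TopHat2, Cufflinks, Cuffdiff and mm10, without versions, roles or order. Counts of reads were not used. The widths of the authors' intervals corresponded to 20.3 to 144.5 fragments per FPKM (median over genes of a library), and the median half-width of the interval was 15.1% of the value for Penk, 26.2% for Cartpt, 33.5% for Cck, 36.0% for Gal, 44.0% for Vip, 46.1% for Npy and 64.3% for Sst.

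Values were tested as log2(FPKM + 1), a pseudocount that understates changes of low genes, over genes of status OK that reached 1 FPKM in 3 or more of the fitted samples. Models were fitted with limma 3.58.1 in R 4.3.3, with tables and plots made in Python 3.11.15 with numpy 2.4.6, pandas 2.3.3 and matplotlib 3.10.9. Each stage had a fit of its own with a mean for each genotype and sex, and differences between stages and interactions came from 1 fit of all 12 groups. Tests were two-sided, p-values were adjusted by Benjamini-Hochberg over all genes tested, and a gene was called at an adjusted p under 0.05. The fits were tested on simulated data. Of 36 pairs of libraries within groups, 4 whose spread was at most 1.15 times counting noise, with at most 1% of genes beyond 3 SD, were averaged; the limits were set after the data were seen. A pair of E14.5 males labelled Ret null, 2 and 3, lay just outside them, with a spread of 1.08 times noise and 1.80% of genes beyond 3 SD. Counting every library is an alternative. The members, lists and markers were chosen with earlier results of these data known. All members are named, and of each list the genes that were called in a comparison. Some of the genes most alike to a member are not reported here.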

Additional observations from a re-analysis of the deposited data

Results flagged for a closer look

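The members' levels were examined in 42 groups of samples for a sample far from the others; 9 groups held one, where chance gives about 1 in 20. In male 2 labelled Ret null at E12.5, the library of its group that held Ret RNA, Cartpt (9.885 FPKM), Gal (5.172 FPKM) and Cck (7.582 FPKM) each stood far above the other 5 libraries under that label. Gal stood far above the rest in E12.5 wild-type male 2 (15.26 FPKM) and in E14.5 wild-type male 3 (6.999 FPKM). Vip was far above the rest in E12.5 wild-type male 1 (0.9738 FPKM). The mean of Penk in females 1 and 2 labelled Ret null at E10.5 (8.834 FPKM) lay far below the others of that label. Sst stood far above the rest in male 1 labelled Ret null at E12.5 (2.112 FPKM) and in female 3 labelled Ret null at E14.5 (6.952 FPKM).

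The change between stages differed between genotypes, by the interaction test as labelled, for Penk from E10.5 to E12.5 (-1.79) and for Cck (2.13) and Npy (-2.42) from E12.5 to E14.5.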

How the results depend on the processing

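Without the libraries labelled Ret null that held Ret RNA, the genotype differences of Cartpt (-1.99) and Npy (-0.45) at E10.5 and of Cck (-0.66) at E14.5 took the other sign. In that set 3 members were called with genotype at E12.5 and 3 at E14.5, 2 in wild type from E10.5 to E12.5, and 0 both in the E12.5 against E10.5 interaction and in the E14.5 against E12.5 step under the Ret null label. Without the libraries whose sex-linked RNA went against the label, 0 members were called with genotype at E10.5, 0 in the E12.5 against E10.5 interaction and 1 in the E14.5 against E12.5 interaction, and the wild-type step of Penk to E14.5 was 0.078. With every library counted, 2 members were called with genotype at E10.5, 3 in the sex interaction at E10.5 (beside 1917 of all genes), 3 in wild type from E10.5 to E12.5 and 3 in that interaction. A pseudocount of 0.1 left 1 member in the E14.5 against E12.5 interaction, and no filter on low values left 0 with genotype at E10.5 and at E14.5. The fit of all 12 groups called 2 at E14.5. Without E14.5 wild-type female 1, an alternative chosen after seeing the data, 0 were called with genotype at E14.5, and Cck was -0.063. The shares of all genes called without the libraries holding Ret RNA are given above. For the other fits of this section, beyond the 1917 genes, no count over all genes is given. A change in their member counts therefore cannot be told apart from a change over all genes. The cause was not tested.

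With the replicate block and every library counted, 0 members were called with genotype at E10.5 and 2 in the sex interaction there, Gal at E10.5 was 0.16 and the wild-type step of Npy to E12.5 was 0.003. The replicate numbers did not pair the samples: deviations of same-numbered libraries correlated over 0.1 in 14 of 48 pairs (-0.367 to 0.392), and 14 of 36 libraries correlated best with their own number.

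With 1 sample left out, the members called with genotype numbered 0 to 2 at E10.5, 0 to 3 at E12.5 and 0 to 1 at E14.5. They numbered 0 to 2 in the sex interaction at E10.5, 0 to 1 in the E12.5 against E10.5 interaction, 2 to 3 in the E14.5 against E12.5 interaction and 0 to 2 in the step to E14.5 under the Ret null label. Signs turned for Cck at E10.5 (-0.212 to 0.262) and E14.5 (-0.118 to 0.345), for Npy at E10.5 (-0.067 to 0.604) and in wild type to E12.5 (-0.528 to 0.096), and for Penk in wild type to E14.5 (-0.209 to 0.165). With the libraries holding Ret RNA left out as well, the ranges were -2.33 to -1.66 for Cartpt and -1.07 to 0.18 for Npy at E10.5, -0.80 to -0.46 for Cck at E14.5 and -0.056 to 0.099 for Vip under the Ret null label to E14.5. Leaving out a close pair also turned Cck at E10.5 (0.107 without wild-type females 1 and 2) and Npy at E10.5 (-0.043 without wild-type males 3 and 4). Over all fits without 1 unpaired library, with and without the libraries holding Ret RNA, the values at E10.5 ranged from -2.33 to 0.735 for Cartpt, -1.621 to 0.262 for Cck and -0.758 to 0.604 for Npy; those of Npy to E12.5 in wild type ranged from -0.296 to 0.096 and those of Vip to E14.5 under the Ret null label from -0.056 to 1.285. Members called in wild type from E12.5 to E14.5 without the libraries holding Ret RNA numbered 4 to 5. That count, out of 7 members, is near the share of all genes called in that step and set, 59.8% with no further sample left out. Low levels limit Vip before E14.5 and Sst throughout.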
